A study of Mus musculus with 4 samples.

Results

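Megakaryocytes are the marrow cells that shed platelets, and the genes described here encode the parts that make those cells and their platelets recognisable. The 10 genes are Tubb1, Pf4, Ppbp, Itga2b, Gp1bb, Gp9, Gp6, Vwf, Treml1 and Pear1. They were chosen by gene symbol, and Tubb1 had been noted beforehand as lower on both SFRP5 arrays, so its difference between genotypes is given as a description. They are measured by 14 of the 55681 probes outside the controls, and stand for 10 of 24277 genes with a level on every array. Single-colour Agilent arrays were hybridised with RNA of 4 sorted samples of adult mouse bone marrow, 1 array per group. The groups were the common lymphoid progenitor sort (CLP; lineage-negative, low for c-kit and Sca-1, IL7Rα-positive) from SFRP5-transgenic mice and from their wild-type (WT) littermates, and the stem and multipotent progenitor sort (LSK; lineage-negative, high for c-kit, Sca-1-positive) from SFRP5-transgenic and from WT mice. The transgene product belongs to the secreted frizzled-related proteins, known as Wnt antagonists. The labels leave out the transgene's promoter, the strain and how many mice gave each sample.

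Megakaryocytes arise from stem and progenitor cells, and become large polyploid cells that build a tubulin-rich cytoskeleton, storage granules and a set of adhesion receptors. Part of this programme is already active in blood stem cells: CD41, encoded by Itga2b, and von Willebrand factor are known from mouse stem cells with a platelet bias. GATA, ETS and NF-E2 family transcription factors are known regulators of platelet genes. Levels below are log2 signals relative to the 75th percentile of the same array, so 0 is that percentile itself. A difference between 2 arrays is counted at 2-fold, and only where the scanner software flagged the spots of both as well above background; such a gene is called measured. The lowest signal that carried this flag lay between -4.91 and -4.74 on the 4 arrays.

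The 250 bases upstream of the annotated start are shown for 4 of the genes, because their signals set the pattern of the results: Tubb1 differed between genotypes, Pear1 and Pf4 differed between sorts in opposite directions, and Ppbp is the neighbour of Pf4 in the same chromosome band and had another pattern. The sequences come from RefSeq (GRCm38.p6), which matched 9 of the 10 genes, and are written 5′ to 3′ on the strand of the gene. Capitals mark, on either strand, the letters GATAA (the core bound by GATA factors), GGAAG (an ETS core) and TGANTCA (the core shared by NF-E2 and AP-1). They lie at chr2:174450345-174450594 (plus strand), chr3:87768954-87769203 (minus strand), chr5:90772185-90772434 (plus strand) and chr5:90768268-90768517 (plus strand). The Pear1 sequence partly overlaps the RefSeq span of the gene, whose upstream end is at 87769110. It is therefore upstream of a start that lies inside that span.
Tubb1: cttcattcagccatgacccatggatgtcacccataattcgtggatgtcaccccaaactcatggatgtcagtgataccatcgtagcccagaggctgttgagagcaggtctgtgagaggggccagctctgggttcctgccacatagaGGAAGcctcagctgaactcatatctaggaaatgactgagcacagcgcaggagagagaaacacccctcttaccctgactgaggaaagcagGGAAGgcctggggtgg
Pear1: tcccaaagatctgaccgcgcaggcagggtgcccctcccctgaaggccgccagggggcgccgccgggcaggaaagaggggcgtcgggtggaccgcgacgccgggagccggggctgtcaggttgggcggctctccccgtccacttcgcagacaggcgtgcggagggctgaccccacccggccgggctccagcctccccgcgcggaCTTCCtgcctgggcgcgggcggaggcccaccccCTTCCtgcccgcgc
Pf4: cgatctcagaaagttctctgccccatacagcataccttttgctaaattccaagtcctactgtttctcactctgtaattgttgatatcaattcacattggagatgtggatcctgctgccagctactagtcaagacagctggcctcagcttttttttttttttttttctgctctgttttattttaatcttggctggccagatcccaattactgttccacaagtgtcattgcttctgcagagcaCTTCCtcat
Ppbp: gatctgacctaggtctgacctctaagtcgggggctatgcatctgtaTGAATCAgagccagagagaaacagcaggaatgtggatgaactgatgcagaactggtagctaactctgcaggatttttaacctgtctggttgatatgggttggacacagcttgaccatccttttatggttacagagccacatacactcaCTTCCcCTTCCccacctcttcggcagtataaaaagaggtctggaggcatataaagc
The GGAAG core was found in 8 of the 9 matched promoters (88.9%), against 64.1% of 32817 promoters of the same length. TGANTCA was found in 2 of 9, those of Ppbp and Gp1bb, against 6.75% of all, and GATAA in 2 of 9, those of Gp9 and Gp6, against 22.6% of all. These are matches of letters in a short window and do not show binding. As with Pear1, the Gp6 window partly overlaps the RefSeq span of its gene, and the Gp9 window lies wholly inside that of Gp9.

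With 1 array per group no difference has a replicate check, so no test between groups was made, and "higher" and "lower" describe these 4 arrays. Precision is limited by the number of arrays. As a lower limit of the error, the scanner software's error of a spot and the spread between replicate spots of other probes within an array are given. That spread had a median SD from 0.058 to 0.070 log2 at levels above 1 and from 0.277 to 0.368 log2 between -5 and -3. Probes well above background made up 66.1% in SFRP5 CLP, 65.7% in WT CLP, 65.4% in SFRP5 LSK and 70.2% in WT LSK. The only Sfrp5 probe did not separate the genotypes, at -0.0041 in SFRP5 CLP, -0.021 in WT CLP, -0.31 in SFRP5 LSK and -0.23 in WT LSK, and the labels do not say whether the transgene carries its sequence. Xist, the RNA of the inactive X chromosome, was at 4.50 in SFRP5 CLP and 4.99 in SFRP5 LSK and was not well above background on either WT array. Of Y-linked genes, Uty, Kdm5d, Ddx3y and Eif2s3y were each flagged well above background on every array, with lower signals in SFRP5 and differences between SFRP5 and WT from -2.26 to -1.03 in CLP and from -1.66 to -0.82 in LSK. The SFRP5 arrays thus carried both Xist and Y-linked signal, while sex-linked genes differed along with genotype. What part of a difference between genotypes below goes with genotype and what with sex cannot be told apart. The sort genes followed the gates, with Il7r at 3.13 in SFRP5 CLP and 0.89 in SFRP5 LSK, and at 2.52 in WT CLP and -0.51 in WT LSK.

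The platelet genes were measurable in both sorts. Of the 14 probes, 12 were well above background on all 4 arrays, and of the 10 genes 8 were. The exceptions were Ppbp, well above background in SFRP5 CLP alone, and Gp6, well above it on all arrays except SFRP5 CLP. The summed linear signal of the 10 genes, in units of the array's 75th percentile, was 8.60 in SFRP5 CLP, 8.94 in WT CLP, 8.57 in SFRP5 LSK and 7.60 in WT LSK. That sum differed little between the sorts, although single genes moved far in both directions. In such bulk samples, fewer cells carrying a transcript and less of it per cell cannot be told apart.

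**Figure D1:**
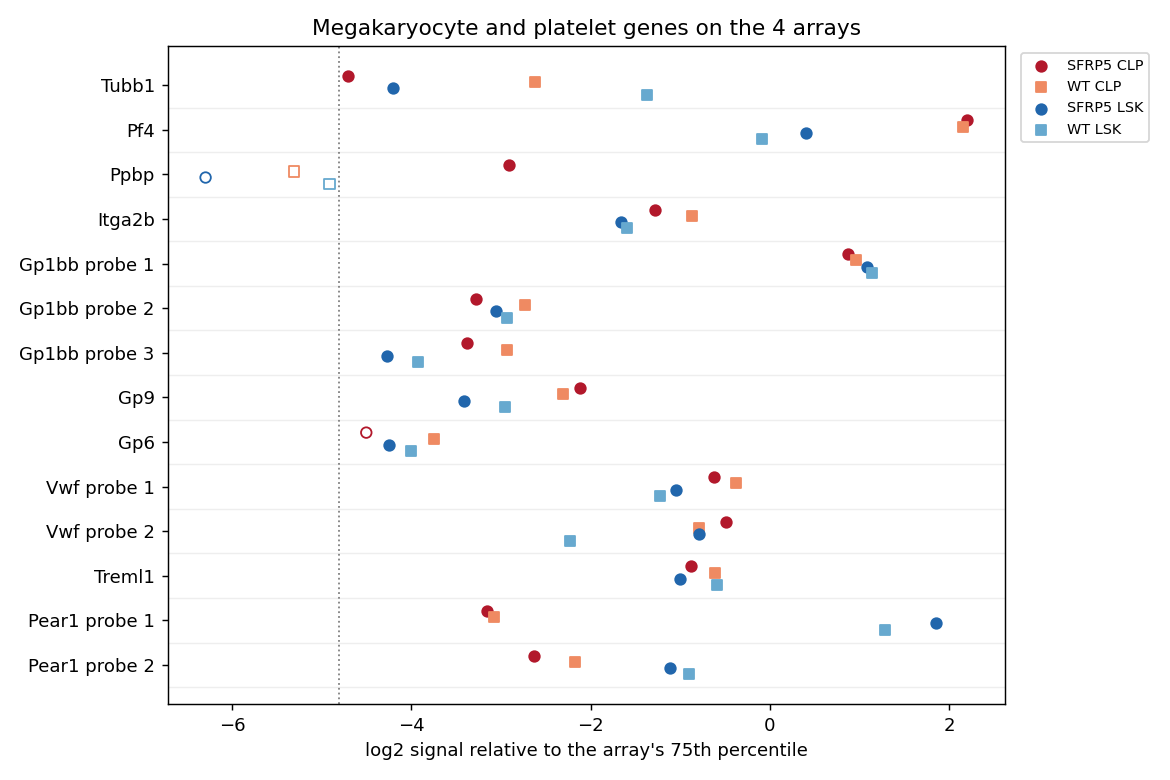
Log2 signal of each of the 14 probes of the 10 genes relative to the 75th percentile of its array, with 1 point per array; filled points are well above background, open points are not, and the dotted line is the mean over the 4 arrays of the lowest signal that carries that flag. Tubb1 lies at -4.70 and -4.21 on the SFRP5 arrays, beside -2.62 and -1.37 on the WT arrays, and Ppbp has a single filled point, in SFRP5 CLP.

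Tubb1, which encodes the β1-tubulin that forms the marginal microtubule coil of platelets, was lower on both SFRP5 arrays. Its probe, the only one for the gene (chromosome band 2qH4), had an intensity of 11.2 ± 2.33 in SFRP5 CLP and 36.9 ± 4.11 in WT CLP, where the error is the scanner software's for that spot. In LSK the intensity was 15.04 ± 2.58 in SFRP5 and 107 ± 10.9 in WT. On the log2 scale the levels were -4.70 in SFRP5 CLP, -2.62 in WT CLP, -4.21 in SFRP5 LSK and -1.37 in WT LSK. Both SFRP5 values lay within 1 log2 unit of the lowest signal that carries the flag, so the size of the difference rests on 2 dim spots.

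The log2 difference of Tubb1 between SFRP5 and WT was -2.84 in LSK (7.16-fold lower in SFRP5) and -2.08 in CLP (4.22-fold lower in SFRP5). It stood 20th from the lowest among 16146 measured genes in LSK and 59th among 15959 in CLP. Since Tubb1 was noted for this difference, these places describe the choice. Of the 15199 genes measured on all 4 arrays, 90 (0.592%) were lower in SFRP5 by 2-fold or more in both sorts, Tubb1 among them, and 85 (0.559%) were higher in both, with 0 members among those. With background correction by normexp, the difference was -1.22 in LSK and -0.84 in CLP, so the call in CLP was lost.

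Other β-tubulins gave other values. Of 7 measured, 0 were at least 2-fold lower in SFRP5 CLP and 1 was higher, against 4.30% and 4.26% of all measured genes. In SFRP5 LSK 1 was lower and 0 were higher, against 7.18% and 6.58%. The medians were -0.10 in CLP and 0.05 in LSK. Tubb5, the widely expressed β-tubulin, had a level of 7.01 in SFRP5 CLP, 7.14 in WT CLP, 6.54 in SFRP5 LSK and 5.93 in WT LSK. Tubb2b turned with the sort, with a log2 difference between SFRP5 and WT of 1.85 in CLP and -1.77 in LSK. The largest size among Tubb2a, Tubb3, Tubb4a, Tubb4b, Tubb5 and Tubb6 was 0.62, that of Tubb5 in LSK. Among 11 α-, γ- and other tubulins, 1 was at least 2-fold higher and 1 lower in each sort, with medians of -0.02 in CLP and 0.34 in LSK.

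**Figure D2:**
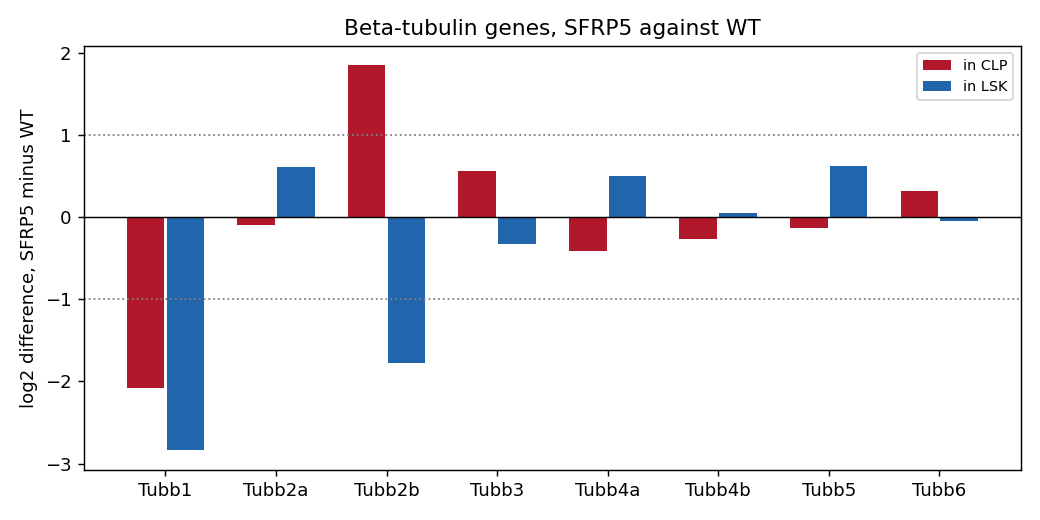
Log2 difference between SFRP5 and WT for Tubb1 and 7 other β-tubulin genes, with a bar for each sort and dotted lines at 2-fold; no error is drawn because each bar compares 2 single arrays. Tubb1 is below -1 in both sorts (-2.08 in CLP and -2.84 in LSK), whereas Tubb2b is at 1.85 in CLP and -1.77 in LSK and the other bars stay inside the dotted lines.

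Genes nearest to Tubb1 in their course over the 4 arrays were sought among 15198 genes well above background on all 4, by Euclidean distance of log2 signals centred on each gene's mean. The 5 nearest with an approved gene name, leaving out clone and predicted names, were Has3 (distance 0.26), Kazald1 (0.46), Ifitm5 (0.52), Tpbgl (0.58) and Meak7 (0.88), and no other platelet gene was among them. Has3 had a level of -3.54 in SFRP5 CLP, -1.58 in WT CLP, -2.81 in SFRP5 LSK and -0.12 in WT LSK. On the SFRP5 arrays, Kazald1 was at -2.98 in CLP and -2.37 in LSK, and Ifitm5 at -3.52 in CLP and -3.54 in LSK. Tpbgl was at -4.59 in CLP and -4.44 in LSK there, and Meak7 at -4.57 in CLP and -3.73 in LSK. Like Tubb1, Tpbgl and Meak7 thus lay near the lowest flagged signal in SFRP5 CLP. Around Itga2b the nearest were Pebp1 (0.039), Eri3 (0.054), Anapc5 (0.056), Cd74 (0.061) and Tnnc1 (0.072). With 4 arrays, likeness is a description only.

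Comparing SFRP5 with WT gives the difference between the genotypes within each sort. By the probe that stands for each gene, the one with the highest mean level over the 4 arrays, the measured members other than Tubb1 lay within 2-fold, but the second Vwf probe did not in LSK. In LSK, 1 of 9 measured members (Tubb1) was at least 2-fold lower in SFRP5, against 7.18% of all measured genes, and 0 were higher, against 6.58%. In CLP, 1 of 8 (Tubb1 again) was lower, against 4.30% of all measured genes, and 0 were higher, against 4.26%. Tubb1 had been noted for this difference, so its part in these counts, and in the medians that follow, describes the choice. The median difference over the measured members was -0.06 in LSK and -0.17 in CLP, beside 0.02 in LSK and -0.04 in CLP over all measured genes. Of 34 measured member differences over the 4 comparisons, 22 kept 1 sign under all 8 alternative settings, so the sign of the small ones depends on the processing. The settings that changed only the filter on dim probes could not change a value, nor could averaging for genes with 1 probe.

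The subunits of the platelet adhesion receptor for von Willebrand factor, Gp1bb and Gp9, stayed within 2-fold between genotypes. Gp9 had a level of -2.12 in SFRP5 CLP, -2.31 in WT CLP, -3.41 in SFRP5 LSK and -2.96 in WT LSK. Its difference between SFRP5 and WT was 0.19 in CLP and -0.45 in LSK. The brightest Gp1bb probe was nearly level on all 4 arrays, at 0.88 in SFRP5 CLP, 0.97 in WT CLP, 1.08 in SFRP5 LSK and 1.13 in WT LSK. The 2 further Gp1bb probes were dimmer, with differences between SFRP5 and WT of -0.54 and -0.45 in CLP and of -0.12 and -0.34 in LSK. Gp1bb overlaps its neighbour Septin5 in the RefSeq annotation, so which gene a Gp1bb probe reads is uncertain. Septin5 itself differed by -0.48 in CLP and -0.37 in LSK.

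Itga2b encodes the αIIb chain of the fibrinogen receptor. It had a level of -1.28 in SFRP5 CLP, -0.87 in WT CLP, -1.66 in SFRP5 LSK and -1.60 in WT LSK. The difference between SFRP5 and WT was -0.41 in CLP and -0.06 in LSK. The 2 LSK arrays thus gave nearly the same signal (87.7 ± 9.15 in SFRP5 and 91.4 ± 9.50 in WT by intensity). Gp6, the platelet collagen receptor, was dim throughout, with intensities of 12.8 ± 2.95 in SFRP5 CLP, 17.0 ± 2.82 in WT CLP, 14.6 ± 3.07 in SFRP5 LSK and 17.2 ± 3.12 in WT LSK. The 4 values differ by little more than these errors. The SFRP5 CLP spot was not well above background.

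Treml1 encodes a receptor stored in platelet granules that reaches the surface on activation. It was at -0.88 in SFRP5 CLP, -0.61 in WT CLP, -1.01 in SFRP5 LSK and -0.59 in WT LSK, a difference between SFRP5 and WT of -0.26 in CLP and -0.41 in LSK.

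Pear1, a receptor that signals when platelets touch each other, had 2 probes. The one with the higher mean differed between SFRP5 and WT by -0.07 in CLP and 0.57 in LSK, and the other by -0.46 in CLP and -0.21 in LSK, so the probes disagreed in sign in LSK.

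Vwf encodes von Willebrand factor, the adhesive protein of platelet and endothelial granules. By its probe with the higher mean, which was the dimmer one on both SFRP5 arrays, it was at -0.62 in SFRP5 CLP, -0.38 in WT CLP, -1.05 in SFRP5 LSK and -1.23 in WT LSK. By the other it was at -0.49 in SFRP5 CLP, -0.79 in WT CLP, -0.79 in SFRP5 LSK and -2.23 in WT LSK. The WT LSK array was lowest by both probes. The difference between SFRP5 and WT in LSK was 0.19 by the first probe and 1.44 by the other, so a 2-fold call in LSK depends on the probe. In CLP it was -0.25 by the first probe and 0.30 by the other.

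The platelet chemokines Pf4 (CXCL4) and Ppbp (CXCL7) lie next to each other in band 5qE1. Pf4 had a level of 2.20 in SFRP5 CLP, 2.15 in WT CLP, 0.40 in SFRP5 LSK and -0.09 in WT LSK. Its difference between SFRP5 and WT was 0.05 in CLP and 0.49 in LSK. Ppbp had an intensity of 38.8 ± 4.64 in SFRP5 CLP and 5.72 ± 2.15 in WT CLP, and of 3.53 ± 2.66 in SFRP5 LSK and 9.17 ± 2.61 in WT LSK. Only the SFRP5 CLP value was well above background, so Ppbp was at least 3.57-fold higher in SFRP5 CLP than in WT CLP. In LSK neither array measured it.

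**Figure D3:**
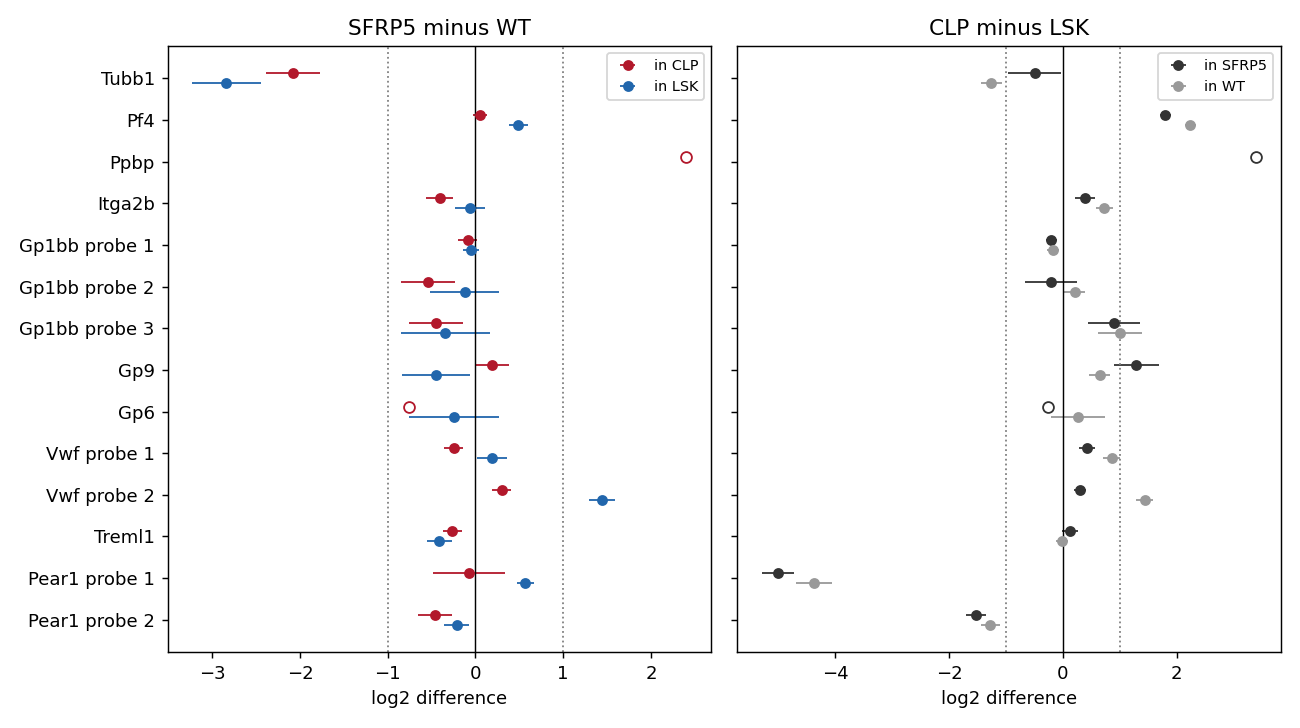
Log2 differences of the 14 probes, SFRP5 minus WT on the left (in CLP and in LSK) and CLP minus LSK on the right (in SFRP5 and in WT); bars join the median SDs of replicate spots of other probes at the same levels on the 2 arrays, open points have only 1 of the 2 arrays well above background, and dotted lines mark 2-fold. Tubb1 is the only gene past -1 in both sorts on the left, and on the right both Pear1 probes lie below -1 and Pf4 above 1 in both genotypes.

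The comparison of CLP with LSK asks how the lymphoid sort differs from the stem and progenitor sort in each genotype. Among members measured in both sorts, Pear1 and Pf4 were furthest apart between sorts, in opposite directions. In SFRP5, 2 of 8 measured members were at least 2-fold higher in CLP (Pf4 and Gp9), against 11.5% of all measured genes, and 1 (Pear1) was lower, against 11.0%. In WT, 1 of 9 (Pf4) was higher, against 17.8%, and 2 (Tubb1 and Pear1) were lower, against 14.3%. Over the measured members the median difference was 0.26 in SFRP5 and 0.26 in WT, beside 0.02 in SFRP5 and 0.02 in WT over all measured genes. The comparisons by sort use the same 4 arrays as those by genotype.

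Pear1 was lower in CLP by both probes in both genotypes. Its probe with the higher mean, which was the brighter one on the LSK arrays only, had an intensity of 32.7 ± 4.22 in SFRP5 CLP and 1004 ± 100.4 in SFRP5 LSK, and of 26.9 ± 3.49 in WT CLP and 674 ± 67.5 in WT LSK. That is a log2 difference between CLP and LSK of -5.01 in SFRP5 (32.2-fold lower in CLP) and -4.37 in WT (20.6-fold lower in CLP). The other probe gave -1.52 in SFRP5 and -1.27 in WT, the same direction at a much smaller size. The first probe's difference was -3.41 in SFRP5 and -2.73 in WT with normexp, and the mean of both probes gave -3.27 in SFRP5 and -2.82 in WT. Among genes measured on all 4 arrays, 5.30% were lower in CLP by 2-fold or more in both genotypes.

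Pf4 was higher in CLP in both genotypes. Its intensity was 1337 ± 134 in SFRP5 CLP and 366 ± 36.7 in SFRP5 LSK, and 1008 ± 101 in WT CLP and 260 ± 26.1 in WT LSK. The log2 difference between CLP and LSK was 1.80 in SFRP5 (3.48-fold higher in CLP) and 2.24 in WT (4.72-fold higher in CLP). Over the 8 alternative settings it stayed from 1.55 to 1.88 in SFRP5 and from 1.82 to 2.62 in WT. The filter settings and probe averaging among them left the Pf4 values as they were. At least 2-fold higher in CLP in both genotypes were 7.01% of genes measured on all 4 arrays. Ppbp, its neighbour, was at least 3.72-fold higher in SFRP5 CLP than in SFRP5 LSK and was not well above background in WT CLP or WT LSK.

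Of the other members, Gp9 was higher in CLP by 1.29 in SFRP5 and by 0.65 in WT, and the first of these was 0.47 with normexp. Itga2b was at 0.38 in SFRP5 and 0.73 in WT, and Vwf at 0.42 in SFRP5 and 0.85 in WT by the probe with the higher mean, and at 0.30 in SFRP5 and 1.43 in WT by the other. Tubb1 was 2.39-fold lower in WT CLP than in WT LSK (-1.26 log2), while in SFRP5, with both values near background, the difference was -0.50. The 2-fold call of Tubb1 in WT was lost with normexp (-0.60), median scaling (-0.88), quantile normalization (-0.97) and cyclic loess (-0.81). Gp1bb and Treml1 stayed within 0.21 log2 between sorts by their brightest probes. The dimmest Gp1bb probe differed from the brightest, at 0.89 in SFRP5 and just at the 2-fold limit in WT.

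**Figure D4:**
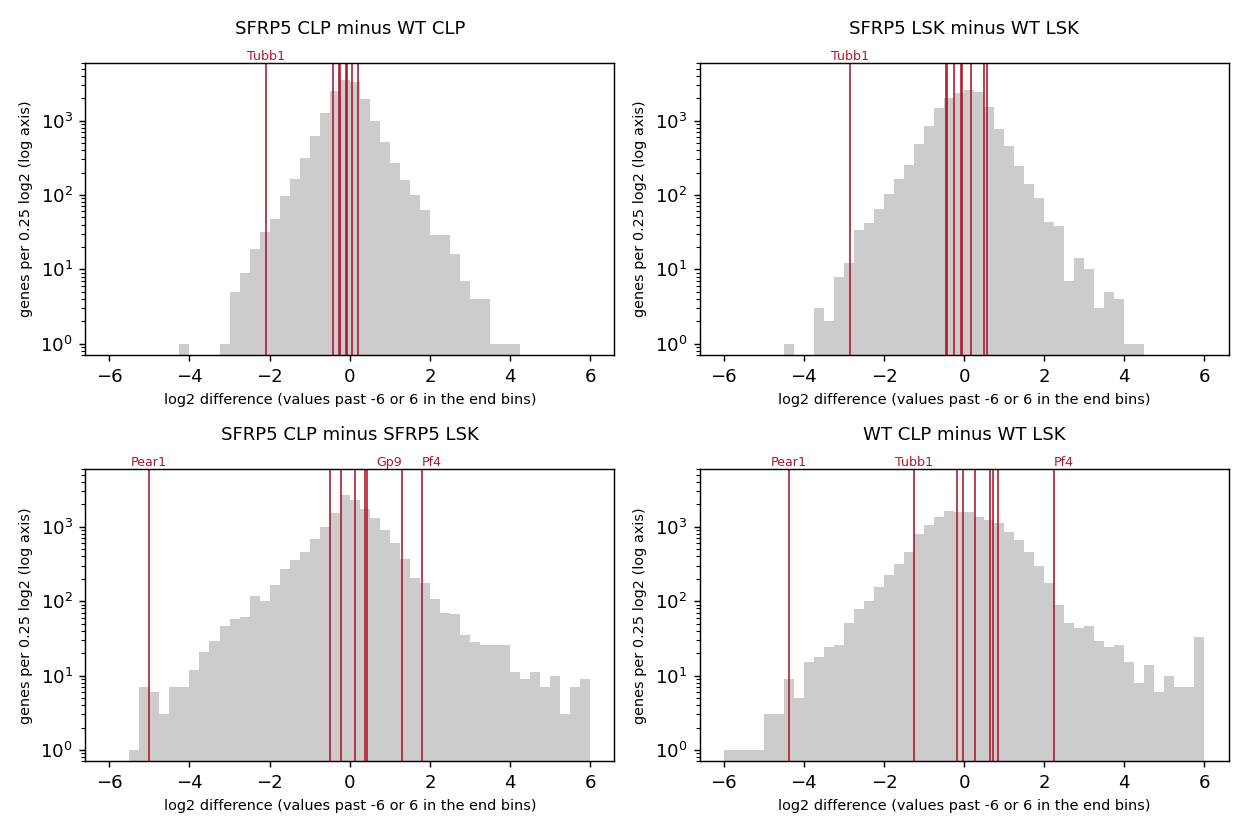
Number of genes per 0.25 log2 (log axis) by log2 difference for each of the 4 comparisons, over genes well above background on both arrays, with a red line for each measured platelet gene and a name for those at least 2-fold apart. Tubb1 is the only named gene in both panels of SFRP5 against WT, and Pear1 (at -5.01 and -4.37) and Pf4 (at 1.80 and 2.24) are named in both panels of CLP against LSK.

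Other genes of the lineage were read from lists of transcription factors, receptors, granule proteins and cytoskeletal proteins. For the counts below, the share of all measured genes at 2-fold in SFRP5 against WT was 4.26% higher and 4.30% lower in CLP. In LSK it was 6.58% higher and 7.18% lower. Between CLP and LSK it was 11.5% higher and 11.0% lower in SFRP5, and 17.8% higher and 14.3% lower in WT. Among 29 transcription factors and cytokine signalling genes of the lineage, 1 was at least 2-fold higher in SFRP5 CLP than in WT CLP and 0 lower, and in LSK 0 were higher and 1 lower. Mecom, a stem cell regulator that also acts in megakaryocytes, was that lower gene, at -1.82. Sh2b3, an adaptor that dampens cytokine signalling, was at 1.09 in CLP and 0.73 in LSK, and Gfi1b, a repressor needed for platelet formation, was at -0.84 in LSK. The list median was -0.07 in CLP and 0.24 in LSK.

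Between sorts the same list split. In SFRP5, 3 of 29 were at least 2-fold higher in CLP and 7 lower, against 11.5% and 11.0% of all measured genes. In WT 4 were higher and 6 lower, against 17.8% and 14.3%. Meis1, a stem cell and megakaryocyte factor, had a difference between CLP and LSK of -3.41 in SFRP5 and -3.51 in WT. Mecom is also among the stem cell markers below. Gata1, the factor shared by megakaryocytes and red cell precursors, was higher in CLP by 4.74 in SFRP5 and by 4.58 in WT. Gfi1b was at 2.16 in SFRP5 and Zfpm1, the GATA1 partner FOG1, at 1.97 in WT. Markers of red cells moved with these genes: of 12 measured, 11 were at least 2-fold higher in CLP in SFRP5 and 11 in WT, with medians of 3.65 in SFRP5 and 4.35 in WT. Their summed linear level was 489 in SFRP5 CLP, 793 in WT CLP, 50.7 in SFRP5 LSK and 55.5 in WT LSK, and of 13 markers all were well above background on both CLP arrays and 12 on both LSK arrays. The part of those cells in the platelet genes' difference between sorts was not tested.

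Of 7 mast cell and basophil markers, 6 were well above background on both CLP arrays and 4 on both LSK arrays. Their summed level also moved with the sort, at 36.6 in SFRP5 CLP, 52.6 in WT CLP, 2.005 in SFRP5 LSK and 1.37 in WT LSK. The brightest, Prss34, was at 4.79 in SFRP5 CLP and 5.34 in WT CLP and weighs most in the CLP sums. In SFRP5, 3 measured markers were at least 2-fold higher in CLP, and so were 3 more that were well above background in CLP only. Mcpt4, well above background in LSK only, was at least 2-fold lower in CLP there. The summed level of B lymphoid markers also moved with the sort, at 96.1 in SFRP5 CLP, 81.9 in WT CLP, 5.57 in SFRP5 LSK and 3.84 in WT LSK. Of the 6 B lymphoid markers, 6 were well above background on each CLP array and 5 on each LSK array. The 5 stem cell markers, of which 3 were well above background in WT CLP and 4 on each other array, went the other way, at 2.01 in SFRP5 CLP, 1.02 in WT CLP, 49.8 in SFRP5 LSK and 51.5 in WT LSK. Between genotypes, the 8 neutrophil markers, of which 7 were well above background in WT LSK and 8 elsewhere, had a median difference of 1.64 in LSK, with 5 of 7 at least 2-fold higher in SFRP5 and 0 lower, and -0.31 in CLP, with 0 of 8 higher and 2 lower. Their summed level was 240.6 in SFRP5 CLP, 212.4 in WT CLP, 54.7 in SFRP5 LSK and 30.0 in WT LSK. Red cell markers had all 13 measured below 0 in SFRP5 CLP against WT CLP, with a median of -0.60 and none at 2-fold. Their part in the genotype differences of the platelet genes was not tested.

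Among 23 further platelet surface receptors that were measured, 3 passed 2-fold upward and 1 downward in SFRP5 CLP than in WT CLP, and 0 were higher and 4 lower in SFRP5 LSK than in WT LSK. Selp, which encodes P-selectin, a granule adhesion molecule, was at 1.92 in CLP. Its WT CLP level of -4.88 was below the lowest flagged spot signal on that array (-4.74). F2rl2, the thrombin receptor PAR3, was at 1.35 in CLP and -2.11 in LSK, and Cd151, a tetraspanin, at -1.56 in CLP. Gp1ba, the ligand-binding chain of the receptor that holds Gp1bb and Gp9, was at -0.79 in CLP between genotypes. It was higher in CLP than in LSK by 2.69 in SFRP5 and by 2.45 in WT, the same direction as Gp9. Esam, an adhesion molecule of stem cells and platelets, was at -4.09 between CLP and LSK in SFRP5, and F2r, the thrombin receptor PAR1, at -2.38 in WT.

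Of 27 measured granule and secreted proteins, 3 were higher by 2-fold or more and 2 lower in SFRP5 CLP than in WT CLP, and 5 higher and 3 lower in SFRP5 LSK than in WT LSK. Thbs1, the platelet adhesive protein thrombospondin, was at 1.37 in CLP and Clu, the secreted chaperone clusterin, at 1.74 in CLP and -1.15 in LSK. F13a1, the A chain of clotting factor XIII in platelets and monocytes, was at 2.26 in LSK. Angpt1, a ligand of the receptor TIE2, was at -3.78 between CLP and LSK in SFRP5 and -3.94 in WT.

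Cytoskeletal and signalling proteins of platelets had 35 measured members in each genotype comparison, of which 2 were at least 2-fold higher and 1 lower in CLP, and 5 higher and 1 lower in LSK. Actn1, the actin cross-linker α-actinin, was at 2.25 in LSK, and Trpc6, a calcium channel, at 2.36 in LSK and 1.37 in CLP. Between sorts, the medians were -0.58 in SFRP5 and -0.42 in WT. In SFRP5, 13 of 34 were at least 2-fold lower in CLP, against 11.0% of all measured genes. In WT 10 of 35 were, against 14.3%. Plek, the platelet protein kinase C substrate pleckstrin, was among them at -2.53 in SFRP5. The 6 measured eicosanoid enzymes held Tbxas1, the thromboxane synthase, at -3.48 in SFRP5 and -2.49 in WT between CLP and LSK, and at -1.12 between SFRP5 CLP and WT CLP.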

How the data were processed

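The deposited scanner files hold spot intensity in 1 colour, which the scanner software (Agilent Feature Extraction, version 10.10.1.1 per the file headers) had background-subtracted; all 4 arrays lay on 1 slide, with probes annotated on mm9. Per the labels' protocols, each cDNA came from 6.1 ng of total RNA and whole-transcriptome amplification. The authors' deposited signal table, an alternative here, was proportional to that intensity on each array for the member probes, by a rule not given in the sources used. Here log2 of the processed intensity minus each array's 75th percentile was used, without controls and outlier spots. Each member probe had 1 spot per array. The probe with the highest mean level over the 4 arrays stood for a gene, and 3525 probe symbols were updated through Entrez IDs (RefSeq, GRCm38.p6). A bound sets the bright array against the higher of the dim array's own signal and the lowest signal that carries the flag there. No test was made, with 1 array per group. The genes named in lists are the 2 highest and 2 lowest per comparison, plus all β-tubulins, less 1 gene that is not reported here. The members and lists were chosen with earlier results of these data known. The planned normexp used the median signal (limma 3.58.1, offset 50), since a mean signal was not in the scanner files used here. This offset by itself shrinks the differences of dim probes. Counting code was tested on simulated data.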

Additional observations from a re-analysis of the deposited data

Results flagged for a closer look

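The difference between SFRP5 and WT had opposite signs in the 2 sorts for Vwf and for 5 of the 7 other β-tubulins as reported. Each value passed only the spread between replicate spots of other probes, which holds no difference between samples. The difference between the sorts was not tested, as each value compares 2 single arrays. Vwf was at -0.25 in CLP and 0.19 in LSK by the probe with the higher mean, but at 0.30 in CLP and 1.44 in LSK by the other. Tubb2b was at 1.85 in CLP and -1.77 in LSK, past 2-fold in both. Tubb3 was at 0.56 in CLP and -0.32 in LSK. Tubb2a was at -0.10 in CLP and 0.61 in LSK, Tubb4a at -0.41 in CLP and 0.50 in LSK, and Tubb5 at -0.13 in CLP and 0.62 in LSK. For 3 of the 6 genes (Tubb2b, Tubb3 and Tubb4a) the signs held under all 8 alternatives, though Tubb3 in LSK came to -0.0054 in one of them. In CLP, Tubb2a reached 0.028 with quantile normalization, Tubb5 up to 0.12 with quantile normalization or cyclic loess, and Vwf 0.028 when probes were averaged, so their signs depend on the processing. The alternatives that changed only the filter on dim probes could not change a sign.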

How the results depend on the processing

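Of 64 recomputed counts of members at 2-fold over 8 alternatives, 52 were within 1.5 times the reported count and 12 were not. Between WT CLP and WT LSK, members lower numbered 1 in place of 2 with median scaling, normexp, quantile normalization and cyclic loess. Members higher there numbered 4 with median scaling, 4 with quantile normalization, 3 with cyclic loess and 2 when probes were averaged, in place of 1. With normexp, members lower in SFRP5 CLP against WT CLP numbered 0 in place of 1, and members higher in SFRP5 CLP against SFRP5 LSK 1 in place of 2. Without the filter on dim probes, members lower in SFRP5 LSK against WT LSK numbered 2 in place of 1 and members higher in SFRP5 CLP against WT CLP 1 in place of 0. The gene added by leaving out the filter was Ppbp, at -1.38 in LSK and 2.40 in CLP, which was not measured in either comparison. The cause of these changes was not tested. Of 34 measured member differences, 22 kept 1 sign under all 8 alternatives, and no 2-fold difference changed sign. The alternatives that changed only the filter could not change a value, nor could averaging for genes with 1 probe. Median scaling moved the median of all genes by 0.32 for SFRP5 against WT in LSK and by 0.38 for CLP against LSK in WT, and the authors' table by -0.13 and -0.41 for the same comparisons and by -0.19 for CLP against LSK in SFRP5. The share of 2-fold genes that were higher was 47.8% in SFRP5 LSK against WT LSK, and 78.2% with median scaling, 62.8% with normexp, 60.8% with quantile normalization, 65.1% by cyclic loess, and 33.4% in the authors' table. In SFRP5 CLP against WT CLP it was 49.7%, and 60.1% in the authors' table. Between sorts it was 51.1% in SFRP5 and 37.6% in the authors' table, and in WT 55.4%, with 78.7% by median scaling, 66.1% by normexp and 26.6% in the authors' table. Signal over background limits Tubb1 on the SFRP5 arrays, Gp6 and Ppbp. No paired analysis was possible with 1 array per group. An additive fit of genotype and sort, with 1 residual degree of freedom, was not run.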
